A study of Rattus norvegicus with 48 samples.

Results

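A set of 31 protein-coding genes whose mean level was higher in rat liver slices treated with SB525334 than in every other group of the study was examined. A gene entered the set if it was listed in the authors' table of expressed protein-coding genes, averaged 2 CPM or more with SB525334, and reached at least 4 times the mean of each of the other 4 groups. CPM, the unit of level used throughout, is a gene's count relative to the total count of its library, multiplied by 1000000, with no further scaling. The count table held 32883 gene IDs, of which 14418 were also listed as coding, and 31 of these met the rule. The genes were thus chosen by their group means, so values in contrasts of SB525334 with the other groups are given as a description without a test.

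The study sequenced RNA from slices of rat liver kept alive outside the animal. They came from rats with bile duct ligation (BDL), which blocks bile flow and leads to scarring of the liver, or from sham-operated rats. Ligated slices received SB525334 (BDL_SB525334, n = 9), Nint (BDL_Nint, n = 10), Sora (BDL_Sora, n = 10) or vehicle (BDL_veh, n = 10), and sham slices received vehicle (Sham_veh, n = 9), 48 libraries in all. Nint and Sora are the labels' short forms, read here as the multikinase inhibitors nintedanib and sorafenib. The labels used here give no strain, age, dose, exposure time or animal of origin, so the p-values below measure only how these libraries varied, and that variation may be technical. In 9 of 9 BDL_SB525334 libraries the authors' sample sheet carries another compound code, so the identity of the compound rests on the labels.

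SB525334 blocks the kinase of ALK5, the type I receptor for transforming growth factor beta (TGF-beta). On ligand binding this receptor phosphorylates SMAD2 and SMAD3, which enter the nucleus with SMAD4 and change transcription. In liver the pathway is best known for turning stellate cells into matrix-producing myofibroblasts, and it also restrains the growth of hepatocytes. The genes described here are those that stood higher with the inhibitor. The files give Ensembl gene IDs without symbols, and the reference table used here matched 0 of them. The genes are therefore called members and numbered 1 to 31 by decreasing ratio of the BDL_SB525334 mean to the highest of the other 4 group means. No function, chromosome or sequence is attached to any of them. In bulk slices, more cells of a type and more RNA per cell cannot be told apart.

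Total counts ranged from 12249470 to 29596987 per library, and from 12570357 to 15523934 in the BDL_SB525334 group. A count of 0 still allows up to 3 counts, which equal 0.101 to 0.245 CPM at these depths. The first read of a pair was antisense to the annotated gene in 98.37 to 98.99% of cases by the authors' quality metrics, so the libraries kept strand, but whether counting used it is not given in the sources used here. Non-uniquely mapped reads made up 9.85 to 20.85% of reads in BDL_SB525334 libraries, 8.2 to 8.76% in BDL_Nint, 8.01 to 9.25% in BDL_Sora, 8.1 to 8.89% in BDL_veh and 10.17 to 12.66% in Sham_veh. Mitochondrial reads were 2.19 to 4.49% of alignments in BDL_SB525334, 1.37 to 1.64% in BDL_Nint, 1.54 to 1.86% in BDL_Sora, 1.33 to 1.54% in BDL_veh and 2.02 to 2.46% in Sham_veh. The part of either measure in the results below was not tested, except where a value is given.

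The members' BDL_SB525334 means ran from 2.68 to 1594 CPM. In BDL_SB525334 slices 11 members averaged 2 to 10 CPM, 10 averaged 10 to 100 CPM and the others averaged more, with a median of 49.0 CPM over members. The ratio to the highest other group ranged from 4.03 to 21.4, with a median of 5.60; 10 members had a ratio of 8 or more and 16 a ratio under 6. Against each other group separately, the median ratio over members was 7.59 for BDL_Nint, 7.77 for BDL_Sora, 9.07 for BDL_veh and 11.0 for Sham_veh. The group next below BDL_SB525334 was not the same for all: it was BDL_Nint for 7 members, BDL_Sora for 8, BDL_veh for 7 and Sham_veh for 9. In unscaled CPM the lowest group was Sham_veh for 19 of the 31, and the share over all genes was not computed.

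**Figure D1:**
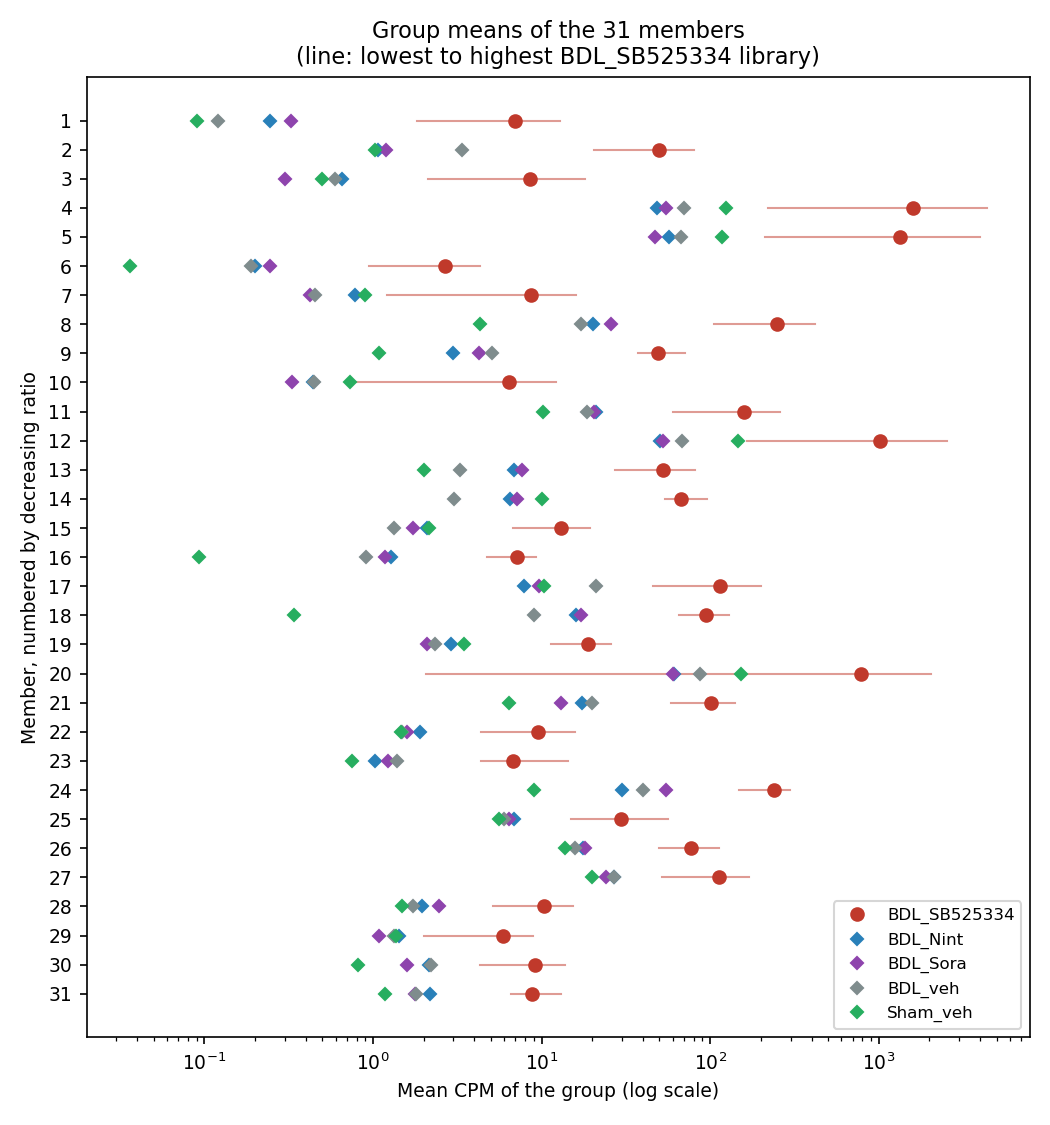
Mean CPM of each member (rows, numbered by decreasing ratio) in BDL_SB525334 (red circles) and in the 4 other groups (diamonds), on a log axis; the red line runs from the lowest to the highest of the 9 BDL_SB525334 libraries. The red circle lies at least 4 times to the right of every diamond because the rule chose it so, and the line reaches back past the diamonds for member 20, whose lowest library held 2.07 CPM.

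At the edge of the rule the values were continuous. The 3 members just inside the fold limit had ratios of 4.03, 4.14 and 4.14, and the 3 coding genes just outside it had 3.87, 3.88 and 3.94. Those just outside averaged 11.7, 164 and 891 CPM with SB525334, against highest other means of 3.01, 42.2 and 226 CPM. The 3 members just inside the level limit averaged 2.68, 5.90 and 6.43 CPM, and the 3 genes just outside it averaged 1.75, 1.76 and 1.99 CPM at ratios of 4.68, 13.5 and 4.78. A further 7 IDs met both limits but were not in the coding table. Their BDL_SB525334 means ran from 3.57 to 113 CPM, and 1 of them rested on a single library, BDL_SB525334 library 4, at 49.1 CPM against a group median of 0.677 CPM.

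The count of 31 also depends on scaling. Over genes at 1 CPM or more in some group, the median log2 ratio of unscaled means was -0.37 for BDL_SB525334 over BDL_veh, -0.38 over BDL_Nint, -0.37 over BDL_Sora and -0.02 over Sham_veh. The unscaled rule is thus stricter against the ligated groups than a scaled one. With TMM factors, which set the typical gene level across libraries, the same limits gave 64 genes, all 31 members among them. The members' median log2 ratio was then 3.33 to BDL_Nint, 3.33 to BDL_Sora, 3.64 to BDL_veh and 3.55 to Sham_veh. Unscaled, these medians were 2.92, 2.96, 3.18 and 3.46. Sham_veh, the group furthest below without scaling, was thus no longer so by this median.

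For 24 of the 31 members the lowest BDL_SB525334 library lay above the highest of the other 39 libraries. The exceptions were members 4, 5, 7, 10, 12, 20 and 29. The rule used these same values, so this count and the remarks below on overlap with the SB525334 group are description only. The share over all genes was not computed. ENSRNOG00000006368 (member 1) had the largest ratio, 21.4. Its lowest, median and highest values were 1.84, 6.15 and 12.8 CPM in BDL_SB525334 libraries. It had 0.0770, 0.261 and 0.344 CPM in BDL_Nint, 0.10, 0.253 and 0.859 in BDL_Sora, 0, 0.0696 and 0.307 in BDL_veh, and 0, 0.0596 and 0.295 CPM in Sham_veh. The gene was thus near the floor of detection outside the SB525334 group, with 0 counts in 2 BDL_veh and 3 Sham_veh libraries, and no library outside that group overlapped it.

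Member 2 was higher throughout, at 20.6, 48.7 and 80.6 CPM in BDL_SB525334 libraries. The same 3 values were 0.196, 0.736 and 2.42 CPM in BDL_Nint, 0.358, 1.23 and 2.13 in BDL_Sora, 2.18, 2.75 and 5.74 in BDL_veh and 0.0701, 1.01 and 2.10 CPM in Sham_veh. The vehicle-treated ligated slices were the next highest group here, and the SB525334 libraries began at 20.6 CPM, well clear of the highest of them. Member 3 had 2.11, 6.69 and 18.2 CPM in BDL_SB525334, against 0.327, 0.564 and 1.30 in BDL_Nint, 0.0675, 0.212 and 1.21 in BDL_Sora, 0.0749, 0.334 and 1.96 in BDL_veh and 0.148, 0.473 and 1.18 CPM in Sham_veh. Its lowest SB525334 library, library 7, came close to the highest vehicle library but did not overlap it.

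Member 6 was the scarcest, at 0.943, 3.04 and 4.31 CPM in BDL_SB525334 libraries. It had 0, 0.173 and 0.415 CPM in BDL_Nint, 0, 0.252 and 0.764 in BDL_Sora, 0.0768, 0.162 and 0.375 in BDL_veh and 0, 0 and 0.118 CPM in Sham_veh. Outside the SB525334 group 9 libraries, 5 of them sham, held 0 counts of it. Members 1, 3, 6 and 10 passed the filter on low counts only through the SB525334 libraries, so for comparisons among the other groups their values are given below without being counted as calls.

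After members 4, 5, 12 and 20, the most abundant were 8 and 24, with whole counts in every library. Member 8 had 105, 233 and 419.8 CPM in BDL_SB525334, 16.6, 20.5 and 23.2 in BDL_Nint, 22.0, 25.7 and 30.3 in BDL_Sora, 16.05, 16.7 and 19.4 in BDL_veh and 3.14, 4.41 and 6.01 CPM in Sham_veh. Member 24 had 149, 242 and 296 CPM in BDL_SB525334, 20.5, 28.2 and 49.7 in BDL_Nint, 42.5, 53.7 and 70.1 in BDL_Sora, 29.5, 39.4 and 52.3 in BDL_veh and 6.45, 9.22 and 11.9 CPM in Sham_veh. Both were lowest in sham slices, and neither overlapped the SB525334 libraries in any group. Their highest libraries outside the SB525334 group were Sora libraries, library 9 for member 8 and library 8 for member 24.

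**Figure D2:**
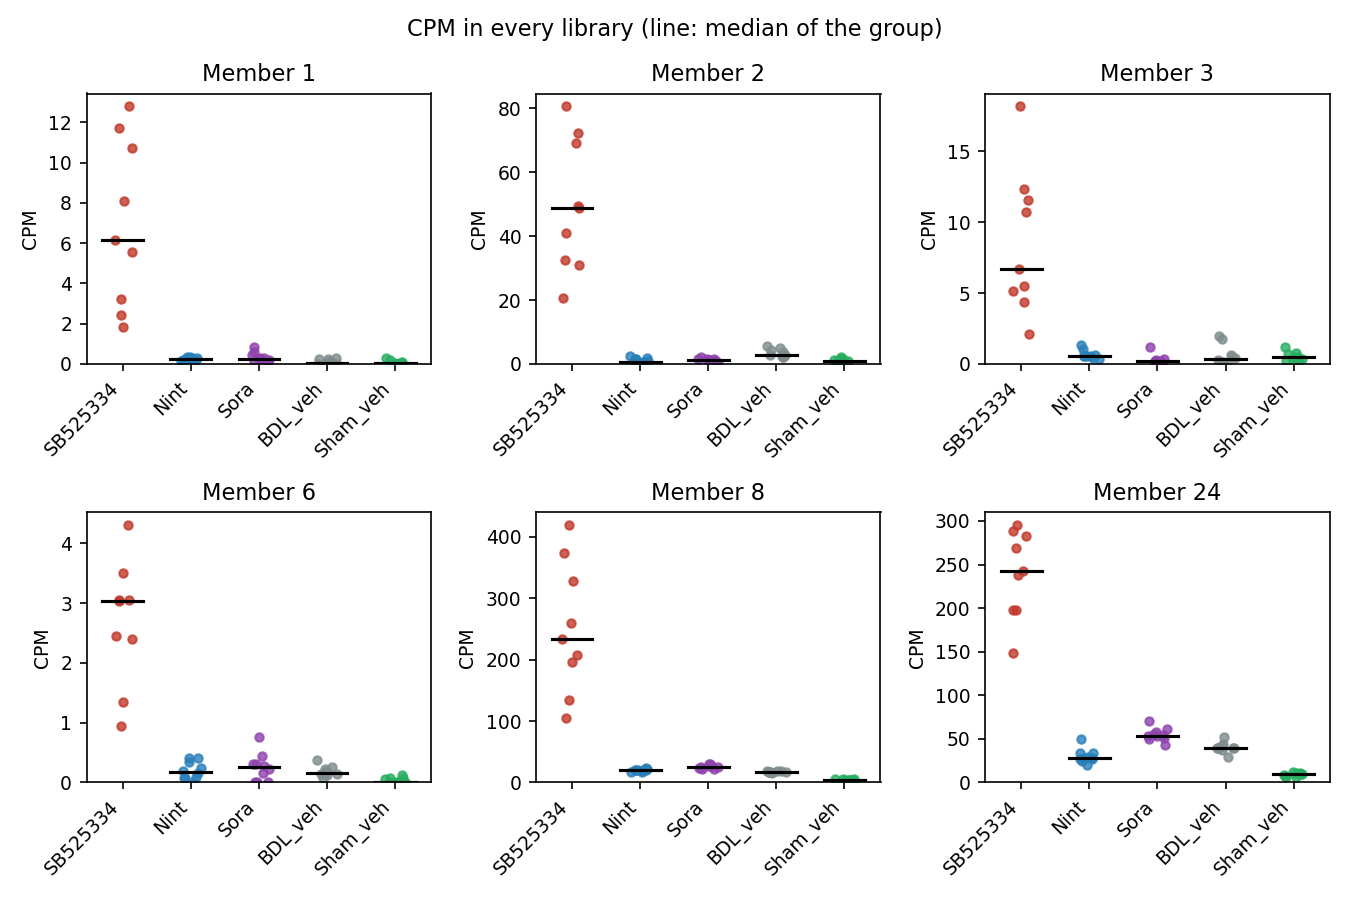
CPM of members 1, 2, 3, 6, 8 and 24 in each library, 1 panel per member with its own axis from 0; points are libraries and black lines group medians, with BDL_SB525334 at the left. No point of the other 4 groups reaches the lowest BDL_SB525334 point in these 6 panels, and the red points spread over 1.99 (member 24) to 8.62 times (member 3) from lowest to highest.

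Members 11, 27, 21 and 26 were abundant as well. Member 11 had 60.4, 158 and 260.3 CPM in BDL_SB525334, 16.8, 21.5 and 23.2 in BDL_Nint, 16.6, 19.8 and 27.6 in BDL_Sora, 16.6, 18.7 and 22.03 in BDL_veh and 7.78, 10.4 and 15.6 CPM in Sham_veh. Member 27 had 51.6, 117 and 169 CPM in BDL_SB525334, 21.6, 27.6 and 31.4 in BDL_Nint, 20.3, 23.7 and 28.7 in BDL_Sora, 22.8, 27.4 and 30.6 in BDL_veh and 15.9, 18.4 and 30.03 CPM in Sham_veh. No library outside the SB525334 group reached its lowest library in either. Member 21 had 58.3, 117 and 141 CPM in BDL_SB525334, 13.01, 16.3 and 23.1 in BDL_Nint, 10.1, 13.2 and 17.1 in BDL_Sora, 14.8, 20.1 and 25.8 in BDL_veh and 3.50, 5.04 and 10.9 CPM in Sham_veh. Member 26 had 49.7, 75.4 and 112 CPM in BDL_SB525334, 16.1, 17.2 and 21.1 in BDL_Nint, 15.1, 17.9 and 20.3 in BDL_Sora, 12.4, 16.2 and 17.7 in BDL_veh and 10.7, 12.9 and 17.7 CPM in Sham_veh. These too did not overlap, and in member 26 the 4 other groups lay close together.

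Member 9 kept clear of the other groups, while the scarcer members 7 and 10 did not. Member 9 had 37.3, 45.7 and 70.7 CPM in BDL_SB525334, 0.814, 3.11 and 4.46 in BDL_Nint, 1.58, 4.38 and 6.92 in BDL_Sora, 2.75, 5.29 and 6.20 in BDL_veh and 0.532, 1.12 and 1.61 CPM in Sham_veh. Member 7 had 1.21, 10.6 and 16.1 CPM in BDL_SB525334, 0.2802, 0.528 and 2.37 in BDL_Nint, 0.175, 0.371 and 0.866 in BDL_Sora, 0.0648, 0.378 and 1.41 in BDL_veh and 0.177, 0.835 and 2.29 CPM in Sham_veh. Member 10 had 0.796, 3.61 and 12.2 CPM in BDL_SB525334, 0.0814, 0.339 and 1.06 in BDL_Nint, 0.0675, 0.265 and 0.554 in BDL_Sora, 0, 0.382 and 1.31 in BDL_veh and 0.148, 0.495 and 2.13 CPM in Sham_veh. Of the 9 SB525334 libraries 8 lay above all others for member 7 and 6 for member 10.

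The counts of the 4 most abundant members were tied to each other. Members 4 (ENSRNOG00000055956), 5, 12 and 20 averaged 1594, 1340.3, 1012 and 790.1 CPM in BDL_SB525334 slices and made up 75.7% of the members' summed CPM there. RSEM, the program named in the submitters' processing notes, divides reads that fit several genes among them and so gives fractional counts. In these 4 IDs 93.75% of values were not whole, whereas 23 of the 31 members had whole values in every library. Among the remaining members, 22, 29, 3 and 25 had 83.0, 25.0, 6.25 and 2.08% of nonzero values not whole, so member 22 too carried fractional counts in most libraries. Of all coding IDs, 11.9% had more values that were not whole than whole. In 39 of 48 libraries at least 2 of 5 IDs, these 4 and a further coding ID that is not a member, carried equal counts to within 1e-06. In the BDL_SB525334 group this held in libraries 1 and 8 only, and in its other libraries the 5 values all differed. Member 12 equalled another of the 5, at a value that was not whole, in 32 libraries, member 4 in 34, member 20 in 19 and member 5 in 8. The 5 IDs are therefore best read as a single quantity, and the 4 members among them are not independent of each other.

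Individually, these members ranged widely within a group. Member 4 had 221, 1513 and 4379 CPM in BDL_SB525334 libraries, 35.9, 48.02 and 62.3 in BDL_Nint, 30.1, 58.3 and 68.5 in BDL_Sora, 48.2, 68.6 and 87.6 in BDL_veh and 40.2, 82.1 and 313 CPM in Sham_veh. Member 5 had 212, 1091 and 3968 CPM in BDL_SB525334, 35.0, 55.5 and 94.5 in BDL_Nint, 23.4, 49.6 and 61.0 in BDL_Sora, 37.7, 68.3 and 86.9 in BDL_veh and 56.4, 105 and 286 CPM in Sham_veh. In both, 7 of the 9 SB525334 libraries lay above all others, while the lowest SB525334 libraries overlapped the highest sham ones.

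Members 12 and 20 were low in single libraries. Member 12 had 165, 767 and 2526 CPM in BDL_SB525334, 35.9, 49.4 and 62.3 in BDL_Nint, 30.1, 53.9 and 65.4 in BDL_Sora, 48.2, 68.3 and 87.6 in BDL_veh and 0.542, 118 and 329.7 CPM in Sham_veh. Member 20 had 2.07, 461 and 2048 CPM in BDL_SB525334, 42.1, 58.4 and 82.0 in BDL_Nint, 48.5, 57.6 and 92.1 in BDL_Sora, 64.8, 86.1 and 115 in BDL_veh and 0.960, 101 and 409 CPM in Sham_veh. The low points were BDL_SB525334 libraries 7 and 9 for member 20, at 8.56 and 2.07 CPM beside 2646 and 2284 CPM of member 4. Likewise member 12 was at 165 CPM in BDL_SB525334 library 4, where member 4 was at its highest. The 5th ID, which missed the rule, was at 357, 279 and 201 CPM in BDL_SB525334 libraries 1, 6 and 8 and at 2.70 to 45.9 CPM in the other 6.

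Summed, the 5 IDs gave 4841 ± 3231 CPM in BDL_SB525334 (SD, n = 9), 269.6 ± 34.0 in BDL_Nint, 271 ± 41.3 in BDL_Sora, 367 ± 47.7 in BDL_veh (n = 10 each) and 708 ± 429 CPM in Sham_veh (n = 9). The sum with SB525334 was thus 6.83 times that in sham and 13.2 times that in vehicle-treated ligated slices. By library, the sum was 1777, 3165, 5576, 10607, 6646, 1245, 7280.4, 1137 and 6131 CPM in BDL_SB525334 libraries 1 to 9. In sham slices libraries 1, 3, 5 and 9 held 1444, 869, 901.0 and 1267 CPM, and the other 5 held 299 to 461 CPM. SB525334 libraries 6 and 8 therefore lay below the highest sham library, and the groups overlapped.

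These sums moved with the share of non-uniquely mapped reads. The 3 BDL_SB525334 libraries with the lowest sums, 1, 6 and 8, had 11.27, 9.85 and 10.94% of such reads, the other 6 had 13.42% or more, and library 4, with the highest sum, had 20.85%. Sham libraries 1, 3, 5 and 9 had 12.66, 12.44, 11.57 and 11.88%, and the other sham libraries 11.07% or less. The part of this share in the sums was not tested.

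**Figure D3:**
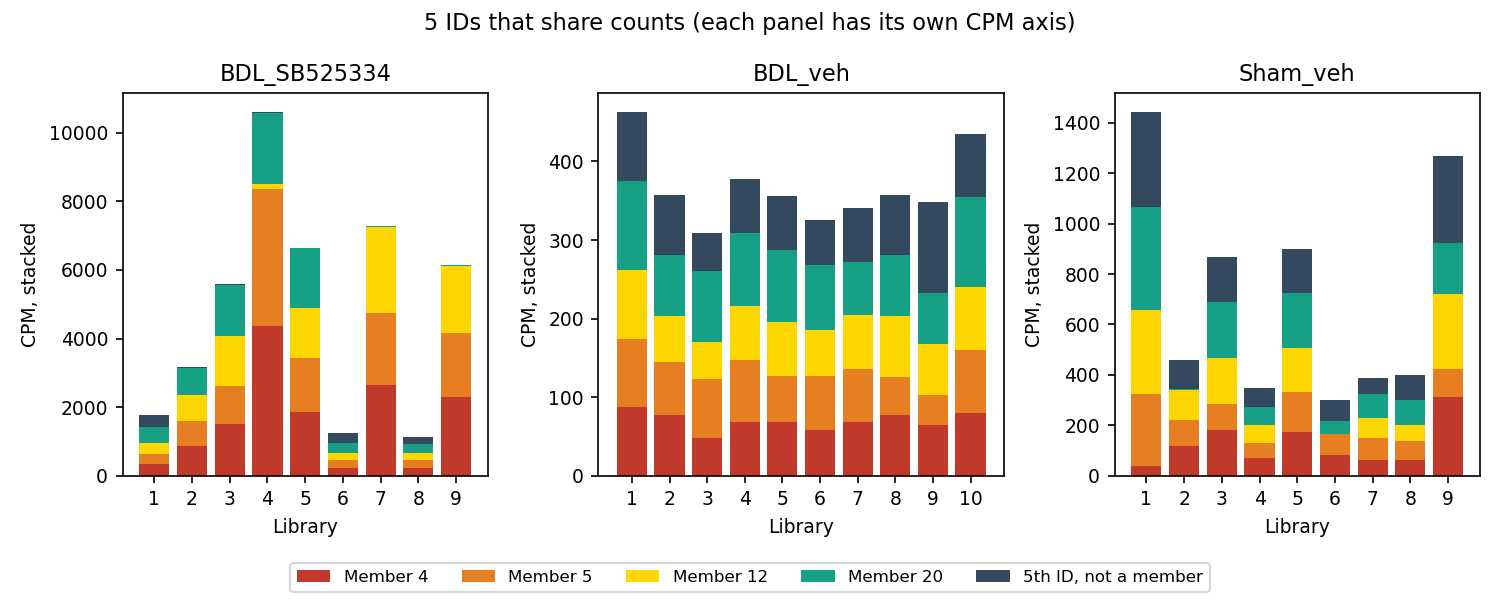
CPM of the 5 IDs that share counts, stacked per library, in BDL_SB525334, BDL_veh and Sham_veh; each panel has its own axis from 0. The BDL_SB525334 sums run from 1137 to 10607 CPM, with member 20 nearly missing from libraries 7 and 9, while the BDL_veh bars stay between 308 and 463 CPM and all show each of the 5 IDs.

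A higher sum in BDL_SB525334 was set in advance for the other 27 members, since the rule placed each of them highest there. This sum is thus no separate evidence on the shared IDs, and the order of the other groups differed. The 27 members varied less in sum within each group than the shared IDs did. Their summed CPM was 1522 ± 425 in BDL_SB525334 (SD, n = 9), 201 ± 17.2 in BDL_Nint, 226 ± 14.3 in BDL_Sora, 206 ± 8.10 in BDL_veh (n = 10 each) and 109 ± 9.997 in Sham_veh (n = 9). The lowest SB525334 library held 808 CPM and the highest library of any other group, a Sora library, 248 CPM. Without the shared IDs the ratio was 7.40 to BDL_veh and 13.9 to Sham_veh, and the group next below BDL_SB525334 was BDL_Sora, whereas for the shared IDs it was Sham_veh.

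Within the BDL_SB525334 group the members varied together, and unevenly. From the lowest to the highest library a member changed by 1.78-fold (member 14) to 15.4-fold (member 10) outside the 4 shared IDs, and the coefficient of variation had a median of 40.3% over all 31. Library 8 held the lowest value for 20 members and was among the 3 lowest for 29. Library 1 was among the 3 lowest for 22 members and library 6 for 17. Libraries 1, 6 and 8 were the 3 lowest for 15 members, 13 of which are outside the 4 with equal counts. Library 4 held the highest value for 10 members, libraries 5 and 7 for 6 each. Without libraries 1, 6 and 8 the rule gave 48 genes, all 31 members among them. Reads mapped to more than 1 place were also scarcest in these 3 libraries, as given above, and the part of that share was not tested. The least variable members were 24, 31, 18, 9 and 14, with coefficients of variation of 20.7, 21.6, 22.0, 22.3 and 23.0%.

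A smaller set followed another order. Members 3, 7, 10, 19, 22 and 29 had their highest BDL_SB525334 value in library 1, 3 or 6, and the remaining 25 in library 4, 5, 7 or 9. Member 7 was at 16.1 CPM in library 6 and at 1.21 CPM in library 8, and member 10 at 12.2 CPM in library 1 and 0.796 CPM in library 5. This split was made after the values were seen, and so was the choice, in each other group, of the library in which most of the 6 peaked. No test bears on what follows, which is a description. In BDL_Nint 5 of the 6 and 5 of the other 25 members peaked in library 4, and in BDL_Sora 3 of the 6 and 5 of the 25 peaked in library 4. In BDL_veh 5 of the 6 and 2 of the 25 peaked in library 10, and in Sham_veh 4 of the 6 and 8 of the 25 in library 1. Members 7, 10, 19, 22 and 29 were the 5 in both BDL_veh and BDL_Nint, and 3 was the exception.

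**Figure D4:**
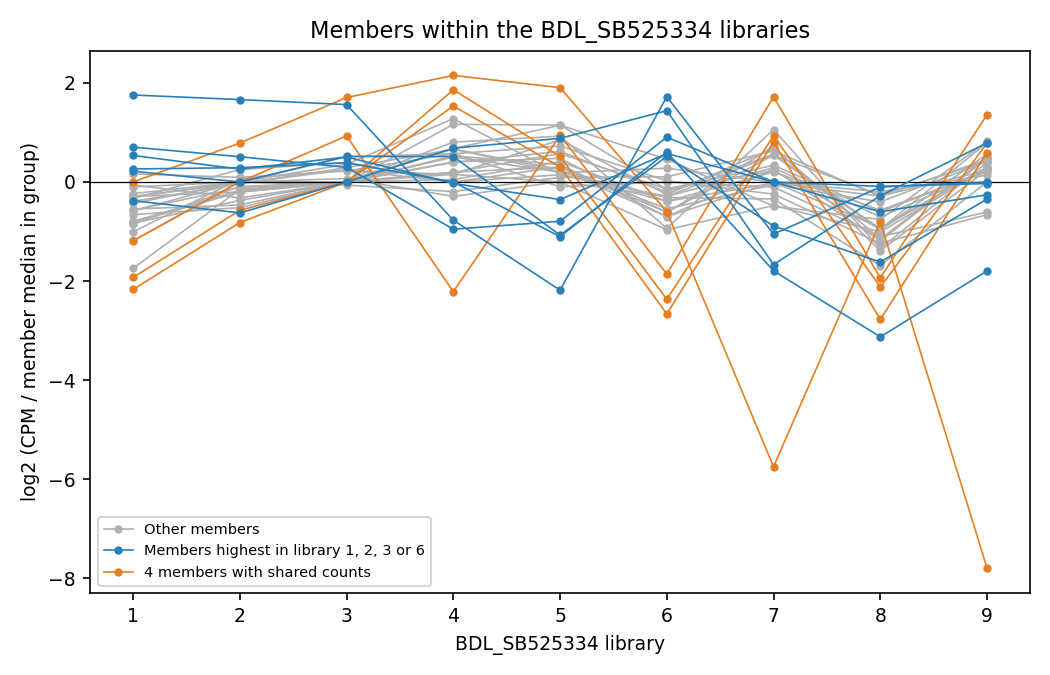
Each member's CPM in BDL_SB525334 libraries 1 to 9 relative to its own median in the group, on a log2 axis; lines join values of a member. Most lines dip at libraries 1, 6 and 8; the blue lines, members 3, 7, 10, 19, 22 and 29, peak in library 1, 3 or 6, and an orange line of the 4 members with shared counts (member 20) falls to 2.07 CPM in library 9.

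Ligation itself, a contrast that the rule did not use directly, was read from vehicle-treated slices. The rule did bound the mean of each group outside SB525334 from above. The shares called here and in the comparisons below may thus reflect the choice of genes, which was not tested. Of the 27 members that pass the filter on low counts without the SB525334 libraries, 10 were higher and 7 lower in BDL_veh than in Sham_veh (quasi-likelihood test of edgeR, p adjusted by Benjamini-Hochberg over 14775 genes and called under 0.05; n = 10 and 9), or 37.0% and 25.9%. Over all genes tested 40.0% were called higher and 42.2% lower, so the higher share was near the background, and the lower share below it. The median log2 fold change was 0.08 over these members and -0.05 over all genes tested. Scaled by total counts alone, the median over all genes tested was 0.30, with 7861 genes called higher and 4035 lower against 5911 and 6235 with TMM factors. In that fit 15 of all 31 members had an edgeR adjusted p under 0.05 and were higher, and 5 lower. With TMM factors these counts were 11 and 7. They cover members 1, 3, 6 and 10 as well, which pass the filter only through the SB525334 libraries. Members 7 and 19 lost their call.

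Member 18 showed the clearest ligation increase. It had 6.93, 9.16 and 11.3 CPM in BDL_veh libraries against 0.0738, 0.355 and 0.908 CPM in Sham_veh, with no overlap (log2 fold change 4.34, SE 0.20, edgeR adjusted p = 3.26e-25). With SB525334 it had 65.1, 96.6 and 129 CPM, a position above both groups that the rule sets. Member 24 (log2 fold change 1.80, SE 0.14, edgeR adjusted p = 3.45e-16) and member 8 (1.64, SE 0.17, adjusted p = 4.99e-12) were also higher after ligation, and in neither did BDL_veh overlap Sham_veh. Member 16 had 0.292, 0.948 and 1.39 CPM in BDL_veh and 0, 0.115 and 0.221 CPM in Sham_veh (log2 fold change 2.87, SE 0.36, edgeR adjusted p = 4.74e-10). Its Sham_veh libraries held a median count of 2, with 0 counts in 2 of them. These sham values lay near or under the floor of detection, so the size of this fold change is uncertain. The other members called higher were 2, 9, 11, 17, 21 and 30, with log2 fold changes of 0.51 (member 11) to 1.87 (member 9). Member 6, not counted among them, had medians of 0.162 CPM in BDL_veh and 0 CPM in Sham_veh, both near or under the floor of detection.

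Member 14 showed the opposite. It had 2.04, 2.92 and 5.10 CPM in BDL_veh libraries and 4.38, 8.28 and 21.8 CPM in Sham_veh (log2 fold change -2.09, SE 0.29, edgeR adjusted p = 7.57e-09), and 54.0, 66.2 and 96.2 CPM with SB525334. It was lower in ligated slices with a slight overlap of libraries, and the rule places the SB525334 group above both. Member 15 had a log2 fold change of -1.03 in ligated slices (SE 0.22, adjusted p = 3.57e-05 by edgeR) and member 5 one of -1.18 (SE 0.36, adjusted p = 0.00257). The other members called lower were 4, 7, 12 and 19. Of these, 4, 5 and 12 share counts, and the sum of the 5 IDs, tested in their place, was lower after ligation as well (log2 fold change -1.31, SE 0.29, adjusted p = 8.7e-05 by edgeR). The call for member 12 was lost in 1 alternative, limma on the authors' log CPM, where its log2 fold change was -0.46 (limma adjusted p = 0.508), and the cause was not tested.

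The multikinase inhibitors moved fewer members. With Sora 6 members were higher and 3 lower than in BDL_veh, 22.2% and 11.1% of the same 27 (edgeR adjusted p under 0.05; n = 10 and 10), where 16.3% and 13.0% of all genes tested were called. With Nint 4 were higher and 4 lower, 14.8% each, against 13.3% and 10.9% of all genes. These shares are near the background. Both comparisons use the same vehicle libraries, so their values are set side by side without a count of shared calls.

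Member 13 had 5.23, 6.12 and 10.9 CPM in BDL_Nint, 5.09, 7.83 and 9.41 in BDL_Sora and 2.12, 3.22 and 4.15 CPM in BDL_veh. Every Nint and Sora library lay above every vehicle library (log2 fold change 1.08, SE 0.17, edgeR adjusted p = 3.34e-06 for Nint, and 1.26, SE 0.17, adjusted p = 1.24e-07 for Sora). Member 18 had 13.2, 16.2 and 18.3 CPM in BDL_Nint, 14.1, 17.3 and 20.3 in BDL_Sora and 6.93, 9.16 and 11.3 CPM in BDL_veh, again with no overlap (0.86, SE 0.12, edgeR adjusted p = 3.21e-07 for Nint, and 0.9997, SE 0.12, adjusted p = 1.03e-08 for Sora). Member 14 was higher by 1.16 (SE 0.28, edgeR adjusted p = 0.00172) with Nint and by 1.30 (SE 0.28, adjusted p = 0.000348) with Sora.

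Members 2 and 17 were lower with both multikinase inhibitors than with vehicle. Member 17 had 46.0, 89.2 and 199.8 CPM in BDL_SB525334, 4.27, 7.79 and 11.3 in BDL_Nint, 3.80, 9.78 and 14.5 in BDL_Sora and 13.3, 21.6 and 24.5 CPM in BDL_veh. Against vehicle it fell by 1.38 on the log2 scale with Nint (SE 0.21, edgeR adjusted p = 1.43e-06), with no overlap, and by 1.04 with Sora (SE 0.21, adjusted p = 9.89e-05). Member 2, whose values are given above, fell by 1.62 with Nint (SE 0.34, edgeR adjusted p = 0.000212) and by 1.42 with Sora (SE 0.32, adjusted p = 0.000636). Both were higher after ligation, by 1.32 for member 2 (SE 0.34, edgeR adjusted p = 0.00053) and 0.66 for member 17 (SE 0.21, adjusted p = 0.00425).

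The remaining calls were smaller. With Sora member 21 fell by 0.55 (SE 0.19, edgeR adjusted p = 0.0293), a call lost without vehicle libraries 3 and 6 (adjusted p = 0.0552), and members 8, 24 and 28 rose by 0.65, 0.50 and 0.58. With Nint member 9 fell by 0.73 (SE 0.20, edgeR adjusted p = 0.00583). Member 15 rose by 0.67 (SE 0.22, edgeR adjusted p = 0.0176), a call lost with plate column as a factor (edgeR adjusted p = 0.113). The plate column was inferred from codes in the library names, and no label gives it. For ENSRNOG00000006368, not counted among the 27, the median count was 3.5 in BDL_Nint, 3.5 in BDL_Sora and 1 in BDL_veh libraries, too few for a call to be read from it. The sum of the 5 shared IDs changed by -0.41 with Nint (SE 0.29, edgeR adjusted p = 0.325) and -0.38 with Sora (SE 0.29, adjusted p = 0.342), and neither passed the test.

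Directly compared, Nint and Sora differed in 1 of the 27 members, with 0 higher and 1 lower with Nint, where 1.37% and 0.948% of all genes were called (edgeR; DESeq2 gave the same counts, and 5 of the 27 had an unadjusted p under 0.05). The member was 24, at 30.1 ± 7.90 CPM in BDL_Nint and 54.7 ± 7.39 CPM in BDL_Sora (SD, n = 10 each; log2 fold change -0.89, SE 0.13, edgeR adjusted p = 0.000133). A single Nint library, library 9 at 49.7 CPM, reached the range of the Sora libraries. Against vehicle this member was lower with Nint (-0.39, SE 0.13, edgeR adjusted p = 0.0196) and higher with Sora (0.50, SE 0.13, adjusted p = 0.00178), and the Nint call was lost without vehicle libraries 3 and 6 (adjusted p = 0.0899).

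**Figure D5:**
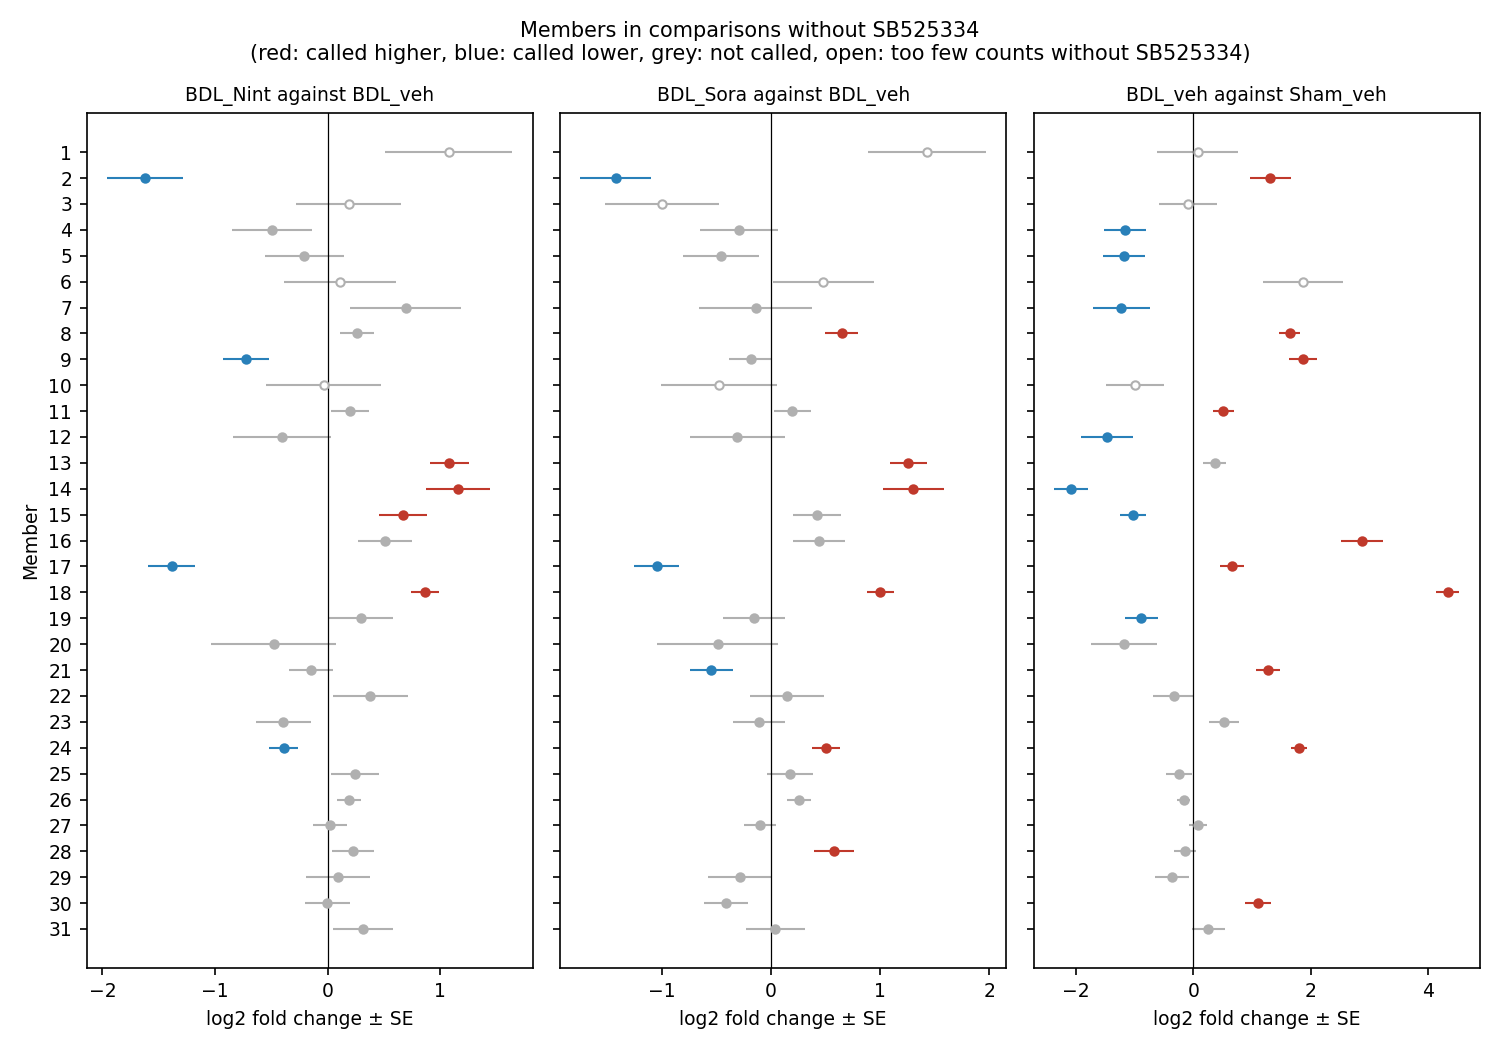
Log2 fold change with SE of each member (rows) for BDL_Nint against BDL_veh, BDL_Sora against BDL_veh and BDL_veh against Sham_veh; red is called higher, blue called lower and grey not called, and open points are members 1, 3, 6 and 10, which are not counted. Calls number 4 and 4, 6 and 3, and 10 and 7, and member 18 is called higher in all 3 panels.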

How the data were processed

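RNA-seq of 48 rat liver slice libraries was used. The authors deposited expected counts per Ensembl gene; RSEM, edgeR and the build Rnor_6.0 are named, with no versions, per the submitters' processing notes. No aligner or annotation release is named there. The authors also deposited log2 CPM values for genes that the file name calls expressed and protein coding, and a table of other quality metrics (percentages, counts and lengths) with a sample sheet. All columns had a sample, so 0 columns were left unused. Of the expected counts 8.02% were not whole (tolerance 1e-06), and counts were rounded before count tests.

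Groups followed the sample titles. Unscaled CPM gave the members. Tests used edgeR 4.0.16 (R 4.3.3): filterByExpr by group (14775 genes, all 31 members, 27 of them also without the SB525334 libraries, over which calls are counted), TMM factors, glmQLFit with robust estimation and glmQLFTest, 1 fit over all libraries, two-sided, 4 comparisons. The SE was derived from the F statistic. The test was checked on simulated data, with the same baseline mean in every group, unlike these members. Over the 4 comparisons it recovered 28 to 54% of 1.25-fold changes, 60 to 86% of 1.5-fold and 94 to 100% of 4-fold changes. Members without a call may thus still have changed by small folds. Every pair of libraries within a group differed by more than sampling noise (lowest chi-square per degree of freedom 3.94 over 207 pairs). Floors cover counting error only.

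The members and lists were chosen with earlier results of these data known. Genes named in the text were the 12 with the largest ratio, the 12 with the highest SB525334 mean, the 3 strongest calls per comparison and direction, and the 3 at each edge of the rule; others were added as counts required. The 32 prepared gene lists, 13 of cell type markers, need symbols and could not be applied, so no marker check of the tissue was made. Alternatives were DESeq2 1.42.0, total counts or RLE factors, 5 CPM in 9 libraries as the filter or none, and fits of the 2 groups alone. Others were limma 3.58.1 on the authors' log2 CPM, a replicate block, plate column, and omission of vehicle libraries 3 and 6. The plate column was inferred from codes in the library names, and no label gives it. Summing the IDs that share counts, leaving the SB525334 libraries out of the fit, and applying the rule to the authors' log2 CPM were added after seeing the data.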

Additional observations from a re-analysis of the deposited data

Results flagged for a closer look

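Of 60 sets of values (10 members given in full and 2 sums, in 5 groups) 5 held a library far from the rest, judged by its gap to the nearest library over the range of the group; chance flags about 1 in 20. Member 5 stood at 3968 CPM in BDL_SB525334 library 4, where the other 8 libraries held 212 to 2084 CPM. The same member stood at 286 CPM in Sham_veh library 1, beside 56.4 to 156 CPM in the others. Both belong to the IDs that share counts, as does member 20, which stood at 92.1 CPM in BDL_Sora library 4 beside 48.5 to 65.4 CPM. Member 3 was at 1.21 CPM in BDL_Sora library 1 and at 0.0675 to 0.350 CPM in the other Sora libraries. Member 24 was at 49.7 CPM in BDL_Nint library 9 and at 20.5 to 33.7 CPM in the other Nint libraries. The effects of Nint and Sora on member 24 differed by -0.89 on the log2 scale in the direct test given above.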

How the results depend on the processing

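The number of members was 31; it was 64 with TMM factors, 61 with RLE factors, 65 from the authors' log2 CPM, 72 at a 3-fold limit, 15 at 6-fold and 48 without BDL_SB525334 libraries 1, 6 and 8. All 31 members were kept in each of these except the 6-fold limit. Without any single BDL_SB525334 library it ranged from 30 to 39. Counted over all 31 members, with the 2 groups alone in the fit 7 were lower with Sora and 7 higher and 7 lower with Nint. For Nint against Sora 1 was higher and 2 lower. Over all genes these fits called 3054 of 14149 lower with Sora, and 2877 higher and 2797 lower of 14139 with Nint. They called 944 higher and 661 lower of 14184 for Nint against Sora. The main fit called 1917, 1971 and 1616, and 203 and 140 of 14775. Without the SB525334 libraries in the fit 2 members were lower for Nint against Sora, and 298 of all 14695 genes. No other count of called members moved by more than 1.5 times. Over all members, comparisons and alternatives, 8 of 429 values of called members lost the call, 39 of 935 values of members not called gained one, 22 of them for ligation, and 0 values of called members changed sign. Replicate numbers do not pair the libraries: same-numbered libraries correlated at -0.20 to 0.55, with 1 of 9 to 5 of 10 pairs over 0.1, and at most 2 pairs in a comparison correlated best with their own number. With a replicate block, over all 31 members, 12 were higher and 8 lower for ligation, and 7 and 3 for Sora. For Nint 4 were higher and 4 lower, and for Nint against Sora 0 and 1. Of all 14775 genes the same fit called 5896 higher and 6215 lower for ligation, and 2402 and 1928 for Sora. It called 1989 and 1614 for Nint, and 187 and 123 for Nint against Sora. Depth limits members 1, 3, 6 and 10 outside the SB525334 group, and member 16 in Sham_veh. The counts of calls in this paragraph include members 1, 3, 6 and 10 wherever they were tested.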
